A study of Zea mays with 6 samples.

Results

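The salt response of the primary root tip of maize was read from 2 of the 6 RNA-Seq libraries of the series. PR-salt is the library from primary roots held in 100 mM NaCl for 24 h, and PR is the library from primary roots held in 0 mM NaCl for the same time. The members are the transcripts of the deposited gene table, 48312 transcripts of 43006 genes, each with its uniquely aligned reads and its RPKM (reads scaled by transcript length and by the counted reads of the library). The response of a transcript is given as the log2 ratio of its share of the library, PR-salt over PR, so that a negative value means fewer reads in PR-salt.

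The seedlings were of the cultivar Chang 7-2 and stood in Hoagland's solution, and the same exposure was given to crown roots (CR-salt and CR) and seminal roots (SR-salt and SR). Treatment began 3 days after germination for PR-salt and PR, 15 days for CR-salt and CR and 7 days for SR-salt and SR, so root type and plant age cannot be told apart. Each library held RNA from the last 1 cm of 10 to 15 roots. The labels speak of biological replicates, but every condition has 1 library, so no value has a replicate error and no test refers to the condition rather than to the pair of libraries.

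The tip of a root holds the cap, the dividing meristem and the cells that begin to elongate. Salt in the medium withdraws water from these cells and brings in sodium, and roots answer it through abscisic acid (ABA), through ion pumps and transporters and through changes in the cell wall. The outer cells of a young root also carry a standing defence, made of secreted chitinases and peroxidases, surface receptors for microbial molecules, and phenolic, benzoxazinoid and terpenoid compounds.

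Rounded to the nearest 10000, PR-salt had 2660000 counted reads and PR had 2560000, and the 6 libraries lay between 2490000 and 2660000. The root hair gene rth3 (GRMZM2G377215) had 55 reads in PR-salt and 57 in PR. The crown root regulator rtcs1 (GRMZM2G092542) had 1 read in PR-salt and 3 in PR, which is at or under the floor of 3 reads used here. The photosynthesis transcripts, taken as markers of green tissue, made up 0.0284% of the reads in PR-salt and 0.0216% in PR. Intervals are exact 95% intervals of the read counts. They cover counting error only, since no molecular identifiers were used and no spread between plants was measured. In RNA from whole tips, fewer cells of a type and less RNA per cell cannot be told apart.

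Most of the transcriptome was alike in the pair of libraries, and what differed was mostly lower in PR-salt. For the 18130 transcripts that were read 20 times or more in the pair, the median log2 ratio was 0.03, with quartiles of -0.24 and 0.25, and 46.3% of them had a ratio below 0. Differentially transcribed genes (DTGs) are transcripts that passed the counting test of the study for a pair of libraries, with a false discovery rate of at most 0.001 and a ratio of at least 2-fold. DTGs lower in PR-salt were 195 of the 18130 (1.08%), and DTGs higher in PR-salt were 13 (0.0717%). Another 4 lower DTGs had fewer than 20 reads. By size alone, 652 transcripts were at least 2-fold lower in PR-salt (3.6%) and 334 were at least 2-fold higher (1.84%). With at least 200 reads, where counting error is small, 87 of 5684 transcripts were at least 2-fold lower and 4 were at least 2-fold higher.

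The lower DTGs had a median log2 ratio of -1.90, and 92 of them were at least 4-fold lower. Together they took 1.43% of the reads in PR-salt and 4.16% of the reads in PR, against 1.3% in CR-salt and 1.59% in CR, and 1.4% in SR-salt and 2.08% in SR. These transcripts were called for a high PR value beside PR-salt, so the large share in PR follows from the choice. Their highest RPKM of the 6 libraries was in PR for 178 of the 199. The higher DTGs had a median log2 ratio of 1.80, and 10 of the 13 had their highest RPKM in PR-salt.

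**Figure D1:**
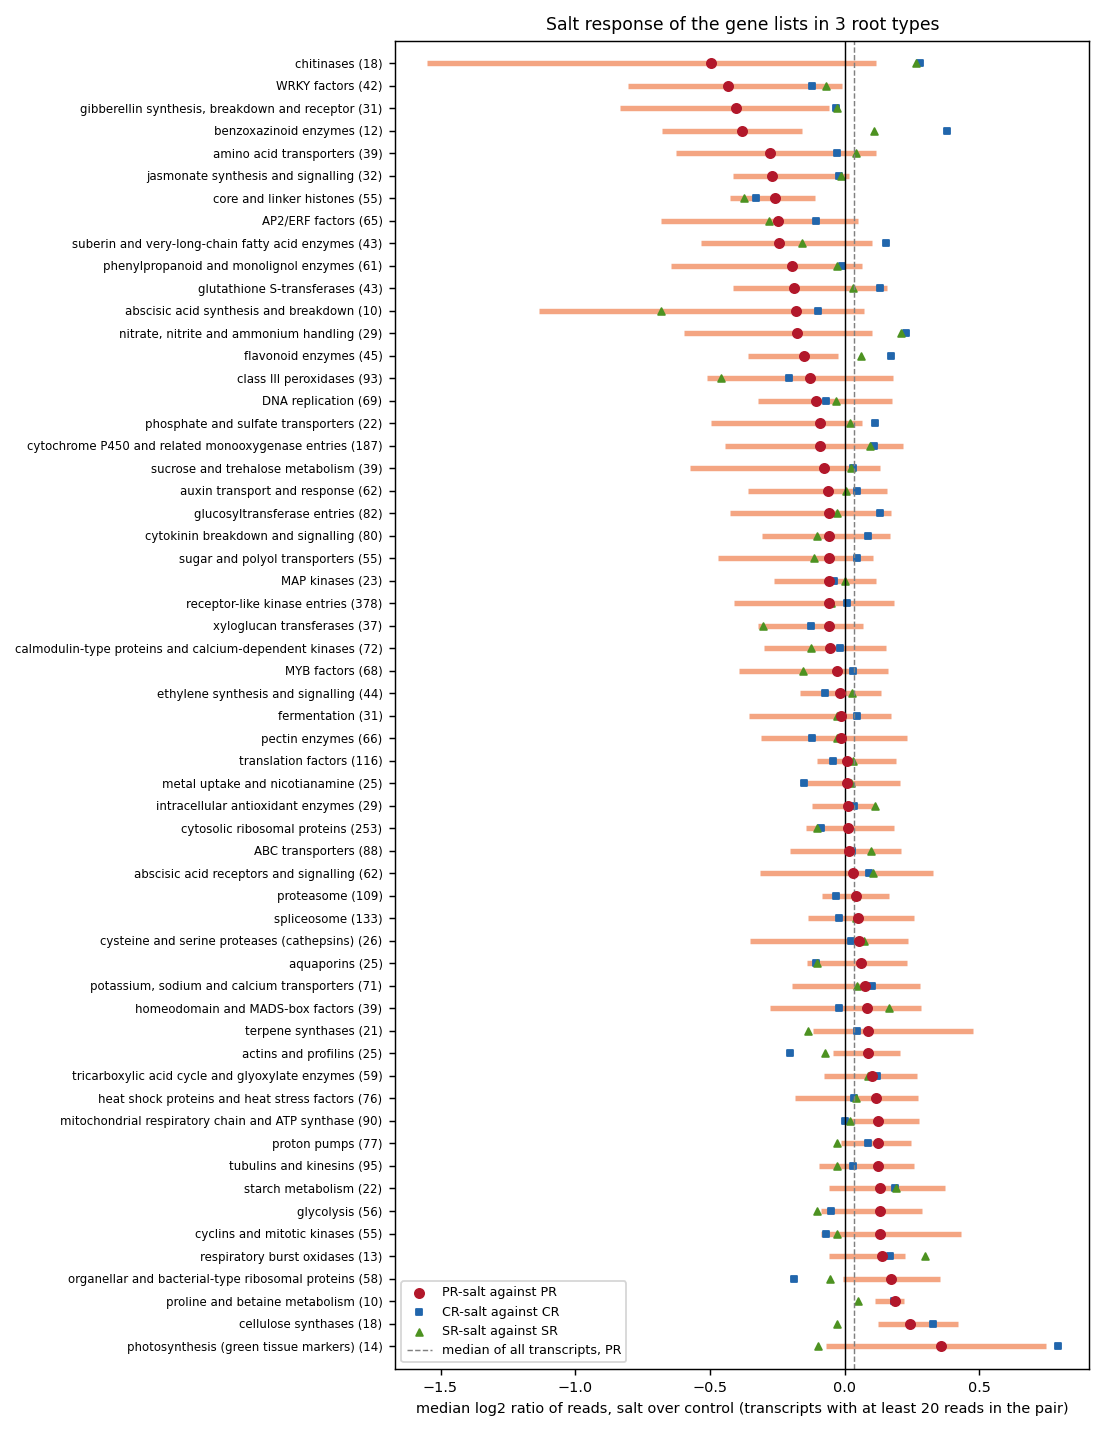
Median log2 ratio of reads, salt-treated over untreated library, for each of the 58 gene lists (in brackets, how many transcripts were read 20 times or more in the PR pair). Circles stand for PR-salt against PR, squares for CR-salt against CR, triangles for SR-salt against SR, bars for the quartiles of the PR ratios, and the dashed line for the median of all transcripts in PR (0.03). The PR medians run from -0.50 for chitinases, which is -0.18 with at least 50 reads, to 0.36 for photosynthesis transcripts.

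Pathways were followed with 58 lists built on the KEGG Orthology entries of the table and with the KEGG entries and GO Process terms themselves. In 39 lists more members were at least 2-fold lower than at least 2-fold higher in PR-salt, in 7 lists the reverse, and in 12 lists the counts were equal. Lower DTGs stood in 28 lists and higher DTGs in 3. The DTG counts of the lists below stand against 1.08% of all transcripts for lower and 0.0717% for higher DTGs. At the second share, a list without a higher DTG is not unusual. In the plot of list medians, chitinases, WRKY factors and the gibberellin list have the lowest PR values. Photosynthesis transcripts, cellulose synthases and proline and betaine metabolism have the highest. The proline and betaine list also held a lower DTG, the proline dehydrogenase GRMZM2G053720, with 4 reads in PR-salt and 38 in PR. It had 7 reads in CR-salt and 30 in CR, and 2 in SR-salt and 9 in SR.

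Chitinases, secreted enzymes that cut the chitin of fungal walls, had a median of -0.50 in PR, against 0.28 in CR and 0.26 in SR. With at least 50 reads in the pair the PR median was -0.18. Of 18 chitinase transcripts with at least 20 reads, 7 were at least 2-fold lower (38.9%, against 3.6% of all transcripts), 4 of them were DTGs and none was 2-fold higher. The whole list took 0.125% of the reads in PR-salt and 0.228% in PR. The remaining members lay on both sides of 0, with 11 of the 18 below it.

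The chitinase chn1 (GRMZM2G453805) reached 441 RPKM in PR-salt and 1170 in PR, 70.7 in CR-salt and 75 in CR, and 43.0 in SR-salt and 29.8 in SR. Its log2 ratio in PR was -1.41 (interval -1.51 to -1.30), and it remained more abundant in PR-salt than in any CR or SR library. The chitinase GRMZM2G162359 had 40.4 RPKM in PR-salt and 257 in PR, 12.2 in CR-salt and 20.8 in CR, and 13.8 in SR-salt and 16.2 in SR. It was 6.36-fold lower in PR-salt. The other chitinase DTGs were GRMZM2G133781, with 46 reads in PR-salt and 313 in PR, and GRMZM2G447795, with 121 and 368. For all 4, the log2 ratio in PR lay below those in CR and SR, and the exact intervals of these differences held no 0. Calling a transcript for a low PR ratio favours such a difference, here and for the lower DTGs named below. Over all lower DTGs, the upper limit of the difference was below 0 for 132 of 177 against CR. Against SR, this held for 126 of 178. The difference for chn1 was -1.32 against CR (interval -1.66 to -0.99) and -1.94 against SR (interval -2.42 to -1.46).

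Class III peroxidases, secreted haem enzymes that use hydrogen peroxide to couple phenolics in the wall, had 7 DTGs among 93 transcripts, all lower in PR-salt (7.53%, against 1.08% of all transcripts). Another 2 members were at least 2-fold lower and none was 2-fold higher. The family as a whole moved little, with a median of -0.13 in PR, against -0.21 in CR and -0.46 in SR, and only its tail reached far below the rest. The peroxidase GRMZM2G427815 had 53.8 RPKM in PR-salt and 536 in PR, 13.9 in CR-salt and 10.7 in CR, and 13.1 in SR-salt and 10.0 in SR. It was 9.96-fold lower in PR-salt, with a log2 ratio of -3.32 (interval -3.58 to -3.06), and its difference from the CR ratio was -3.69 (interval -4.52 to -2.87).

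The peroxidase GRMZM2G443885 had 9 reads in PR-salt and 409 in PR, 39 in CR-salt and 200 in CR, and 28 in SR-salt and 20 in SR. It was lower in both PR-salt and CR-salt, by 47.3-fold in PR-salt, and its PR ratio lay below the CR ratio by 3.25 on the log2 scale (difference -3.25, interval -4.51 to -2.14). The peroxidase GRMZM2G103342, with 238 reads in PR-salt and 719 in PR, had a log2 ratio of -1.65. Its PR ratio differed from that in CR (-1.80, interval -2.66 to -0.95), while the interval of the difference from SR (-1.75 to 0.34) held 0.

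The phenylpropanoid and monolignol list covers the route from phenylalanine to the building blocks of lignin. It had 5 lower DTGs and no higher DTG among 61 transcripts with at least 20 reads. Over all transcripts, 1.08% were lower and 0.0717% higher DTGs. Of the 61, 41 were below 0, with a median of -0.20 in PR, against -0.01 in CR and -0.03 in SR. DTGs stood at several steps of the route. Phenylalanine ammonia-lyase GRMZM2G118345, the entry enzyme, had 11.5 RPKM in PR-salt and 35.9 in PR, 9.37 in CR-salt and 7.48 in CR, and 7.33 in SR-salt and 6.72 in SR. Cinnamate 4-monooxygenase GRMZM2G028677, the next enzyme, had 73.6 RPKM in PR-salt and 156 in PR, 6.68 in CR-salt and 10.5 in CR, and 12.1 in SR-salt and 28.9 in SR. Ferulate-5-hydroxylase GRMZM2G100158, which leads to syringyl lignin, had 22.5 RPKM in PR-salt and 47.9 in PR, 6.42 in CR-salt and 5.03 in CR, and 13.8 in SR-salt and 11.8 in SR.

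These enzymes were 3.11-fold, 2.12-fold and 2.13-fold lower in PR-salt. Cinnamate 4-monooxygenase was also called lower in SR-salt, and its difference between PR and SR was 0.18 with an interval of -0.36 to 0.73. Hydroxycinnamoyltransferases, which attach the phenolic unit to shikimate, had 4 of 19 transcripts at least 2-fold lower and 15 of 19 below 0. GRMZM2G089698 had 5 reads in PR-salt and 34 in PR. GRMZM2G114918, chosen after its values were seen, had 0 reads in PR-salt and 35 in PR, which is at least 12.1-fold lower against the floor of 3 reads.

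The enzymes of suberin and very-long-chain fatty acids, which build the waterproof lamellae of root cell walls, had 3 lower DTGs among 43 transcripts and a median of -0.24 in PR, against 0.15 in CR and -0.16 in SR. The omega-hydroxypalmitate O-feruloyl transferase GRMZM2G050450, which joins ferulic acid to suberin monomers, had 5.02 RPKM in PR-salt and 57.8 in PR, 6.74 in CR-salt and 4.54 in CR, and 6.43 in SR-salt and 3.57 in SR. It was 11.5-fold lower in PR-salt, and the difference of its log2 ratio from that in CR was -4.07 (interval -5.36 to -2.83). A second transferase of this entry, GRMZM2G060210, had 21 reads in PR-salt and 83 in PR. The fatty acid hydroxylase entry CYP94A held the third DTG, GRMZM2G396248, with 23 reads in PR-salt and 70 in PR.

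Flavonoid enzymes had 3 lower DTGs among 45 transcripts, 34 of them below 0, and a median of -0.15 in PR, against 0.17 in CR and 0.06 in SR. All 10 transcripts of the flavonoid 3'-monooxygenase entry were below 0 (median -0.34). Its DTGs were GRMZM2G431288, with 76 reads in PR-salt and 265 in PR, and GRMZM2G125482, with 87 in PR-salt and 184 in PR. The list of cytochrome P450 and related monooxygenase entries shares these and the lignin monooxygenases. Not all of its members are P450 enzymes, since it takes in entries such as zeaxanthin epoxidase. This list had 9 lower DTGs and no higher DTG among 187 transcripts.

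**Figure D2:**
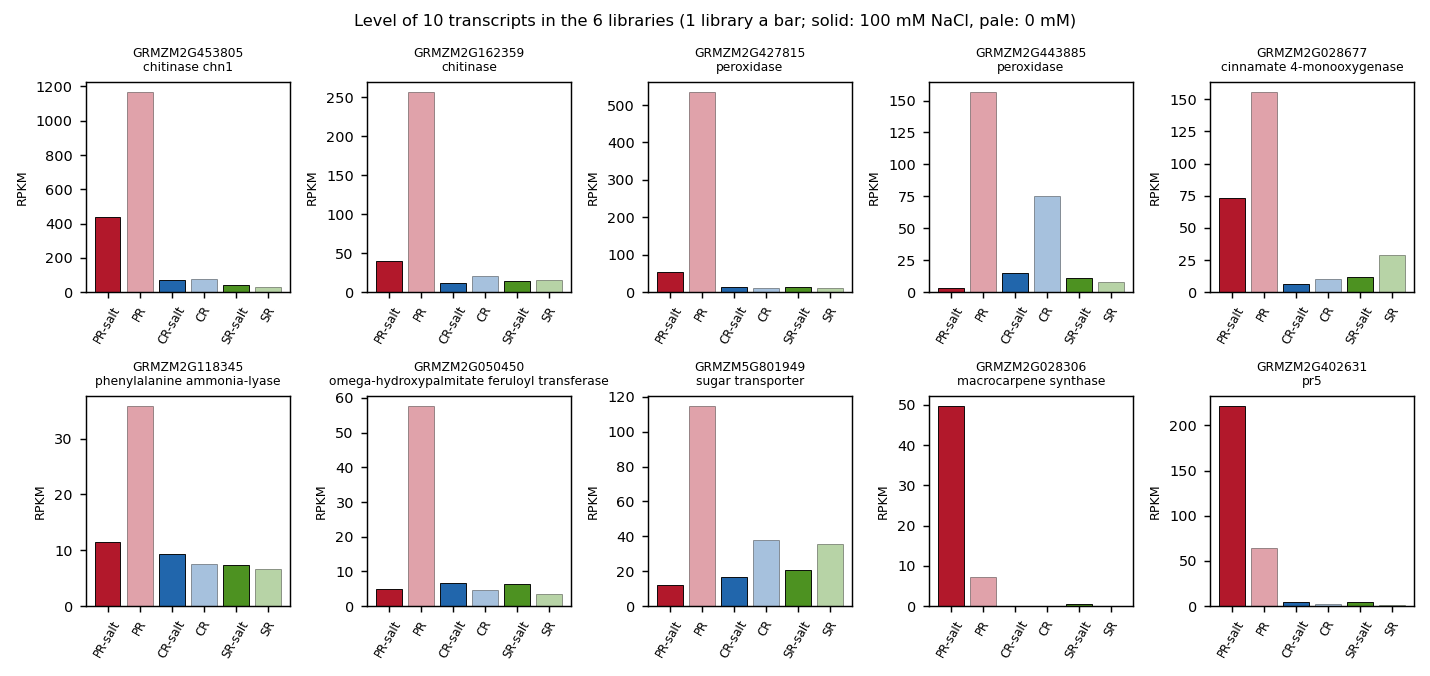
RPKM of 10 transcripts in the 6 libraries, 1 bar a library, with solid bars for 100 mM NaCl and pale bars for 0 mM. In the 8 transcripts that were lower in PR-salt, the PR bar is the highest of the 6 (1170 for chn1, 536 for GRMZM2G427815), and in the last 2, a macrocarpene synthase and pr5, the PR-salt bar is the highest.

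Receptor-like kinases, the surface receptors of the plant cell, held more lower DTGs than any other list: 21 of 378 transcripts with at least 20 reads (5.56%, against 1.08% of all transcripts), with no higher DTG. Their median of -0.06 was close to that of all transcripts, and 215 of the 378 were below 0. The chitin elicitor-binding protein GRMZM2G410991, a chitin receptor, had 33.7 RPKM in PR-salt and 98.9 in PR, 29.1 in CR-salt and 29.7 in CR, and 28.3 in SR-salt and 27.0 in SR. It lay between 27.0 and 33.7 RPKM in 5 libraries and higher in PR, with a difference of ratios of -1.53 from CR (interval -2.11 to -0.94). GRMZM2G087625, whose KEGG entry bears the animal name interleukin-1 receptor-associated kinase, had 8 reads in PR-salt and 143 in PR and at most 7 in each CR and SR library. The somatic embryogenesis receptor kinase entry held GRMZM2G015933, with 159 reads in PR-salt and 317 in PR.

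WRKY factors, which regulate defence genes, had no DTG but a low median. Of 42 WRKY transcripts with at least 20 reads, 32 were below 0, 7 were at least 2-fold lower and 1 was at least 2-fold higher, with a median of -0.43 in PR, against -0.12 in CR and -0.07 in SR. With at least 50 reads the PR median was -0.27. Of the WRKY22 entry, 13 of 15 were below 0 (median -0.59). These transcripts are rare, with a median of 48 reads in the pair against 97 over all transcripts. The 2 WRKY transcripts with the most reads did not share the list's direction. GRMZM2G130854 had 364 reads in PR-salt and 357 in PR, and GRMZM2G322443 had 288 in PR-salt and 271 in PR, with intervals that held 0.

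Benzoxazinoid enzymes, which make the main chemical defence of young maize, had 10 of 12 transcripts below 0 and a median of -0.38 in PR, against 0.38 in CR and 0.11 in SR. With at least 50 reads the PR median was -0.21. None was a DTG, and 2 were at least 2-fold lower. The most abundant glucoside enzyme of the list, GRMZM2G441753, had 2287 reads in PR-salt and 2451 in PR, with 2267 in CR-salt and 1672 in CR, and 2627 in SR-salt and 1834 in SR. Its reads were thus more in the salt-treated library of CR and SR and not of PR. BX14 (GRMZM2G127418), the methyltransferase of the end of this route, is outside the list because the table files it under another entry, and it was chosen after its values were seen. It was a DTG, with 106 reads in PR-salt and 486 in PR, and was also called lower in CR-salt, with 10 reads in CR-salt and 46 in CR.

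Further defence genes without a KEGG entry were noticed among the lower DTGs after their values were seen. They do not stand for all defence genes. The GO Process term for defence response in an incompatible interaction held no DTG in PR. Its log2 ratios ran from -0.81 (GRMZM2G091276) to 1.03 (GRMZM2G000427). The pathogenesis-related gene pr6 (GRMZM2G065585) had 80 reads in PR-salt and 771 in PR and no read in the CR and SR libraries, and its log2 ratio was -3.33 (-3.68 to -2.99). The wound-induced proteinase inhibitor wip1 (GRMZM2G156632) had 61 reads in PR-salt and 198 in PR and at most 3 in the other libraries. The antifungal protein gene Zlp (GRMZM2G374971) had 31 reads in PR-salt and 76 in PR, 41 in CR-salt and 11 in CR, and 14 in SR-salt and 8 in SR, so that its PR ratio differed from the CR ratio (-3.27, interval -4.57 to -2.08). A defence gene with the opposite direction, pr5 (GRMZM2G402631), which encodes a thaumatin-like protein, is among the higher DTGs described with the rises.

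**Figure D3:**
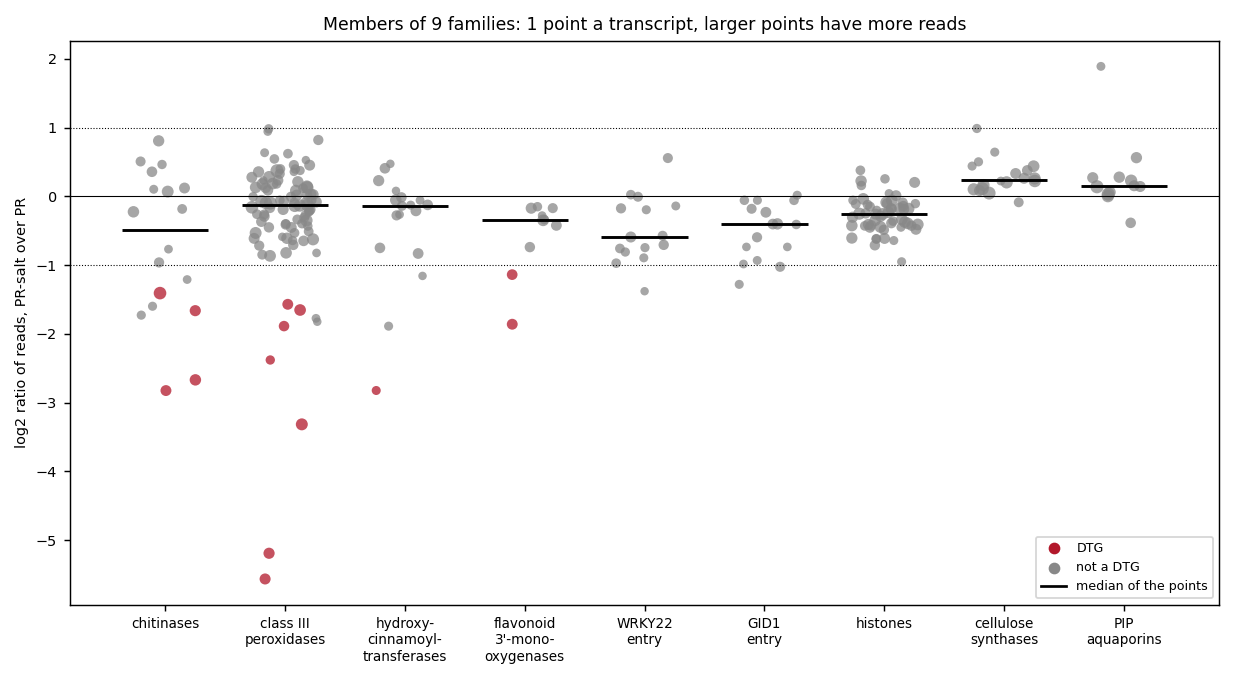
Log2 ratio of reads, PR-salt over PR, of every transcript with at least 20 reads in 9 families or KEGG entries, with 1 point a transcript, larger points for more reads, red points for DTGs and bars for medians. Dotted lines mark 2-fold. The hydroxycinnamoyltransferase with 0 reads in PR-salt is not drawn. Chitinases and peroxidases have members far below the rest, while histones lie as a tight group below 0 (median -0.26) and cellulose synthases above it (0.24).

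Among the hormone lists, that of gibberellin held 3 lower DTGs, that of jasmonate none, and that of ABA synthesis and breakdown DTGs in both directions. The list of gibberellin synthesis, breakdown and receptor had 24 of 31 transcripts below 0, 3 lower DTGs and a median of -0.40 in PR, against -0.03 in CR and -0.03 in SR. With every KEGG entry of a transcript counted, the PR median was -0.23. Gibberellin 2-oxidases, which inactivate gibberellins, gave 2 of the DTGs. GRMZM2G031724 had 7 reads in PR-salt and 55 in PR, 7 in CR-salt and 3 in CR, and 4 in SR-salt and 4 in SR. GRMZM2G022679 had 14 reads in PR-salt and 52 in PR, 16 in CR-salt and 17 in CR, and 20 in SR-salt and 24 in SR. Each was about as rare in PR-salt as in the CR and SR libraries.

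The remaining gibberellin DTG was the ent-copalyl diphosphate synthase an2 (GRMZM2G044481), an enzyme known in maize for diterpenoid defence compounds, with 19 reads in PR-salt and 57 in PR. The receptor entry GID1, which holds many related transcripts, had 15 of 16 below 0 (median -0.41) and no DTG. Jasmonate, the wound and defence hormone, had no DTG in its list, 1 transcript at least 2-fold lower and 24 of 32 below 0, with a median of -0.27 in PR, against -0.02 in CR and -0.01 in SR. Of the ZIM domain (JAZ) entry, its repressors, 9 of 11 were below 0 (median -0.41). Of the entry MYC2, the factor they repress, 12 of 14 were below 0 (median -0.44). Neither direction was confined to primary roots. Most MYC2 transcripts also had negative ratios in both other root types. JAZ transcripts lay on both sides of 0 in CR, and most were negative in SR. Of the lipoxygenase lox1 (GRMZM2G156861), a transcript had 1582 reads in PR-salt and 1530 in PR (log2 ratio -0.01, interval -0.11 to 0.09). A second transcript of lox1, outside the naming rule and chosen after its values were seen, had 815 reads in PR-salt and 527 in PR (log2 ratio 0.57, interval 0.41 to 0.73). The lipoxygenase lox3 (GRMZM2G109130) had 1150 reads in PR-salt and 941 in PR (log2 ratio 0.23, interval 0.11 to 0.36). No DTG was among them.

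ABA synthesis and breakdown had 10 transcripts with at least 20 reads, of which 2 were lower DTGs and 1 was a higher DTG. GRMZM2G110192 is filed under 9-cis-epoxycarotenoid dioxygenase, the enzyme at the committed step of ABA synthesis. The study calls the gene NCED4, and whether its product takes this step was not tested. GRMZM2G110192 had 16 reads in PR-salt and 71 in PR, 8 in CR-salt and 26 in CR, and 15 in SR-salt and 41 in SR. It had fewer reads in each salt-treated library, and the differences between root types had intervals that held 0. Another dioxygenase of this entry, GRMZM2G014392, was not a DTG in PR and had few reads. It had 4 reads in PR-salt and 18 in PR, 10 in CR-salt and 4 in CR, and 15 in SR-salt and 3 in SR. The ABA 8'-hydroxylase GRMZM2G179147, which breaks ABA down, had 20.5 RPKM in PR-salt and 48.1 in PR, 18.7 in CR-salt and 25.7 in CR, and 25.6 in SR-salt and 42.3 in SR. A transcript of the xanthoxin dehydrogenase entry, GRMZM2G308463, went the other way. It had 58 reads in PR-salt and 12 in PR, 3 in CR-salt and 31 in CR, and 12 in SR-salt and 68 in SR. It was a DTG in all 3 root types, higher in PR-salt and lower in CR-salt and SR-salt. Other transcripts of this entry differed little in PR. GRMZM2G013042 had 22 reads in PR-salt and 25 in PR, and GRMZM2G047800 had 33 in PR-salt and 30 in PR.

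ABA receptors and signalling had 62 transcripts, 2 lower DTGs, no higher DTG and a median of 0.03. Both DTGs belong to the PYR/PYL receptor entry, but the reference table names GRMZM2G112524 PR10, a pathogenesis-related protein of the same fold. It had 135 reads in PR-salt and 272 in PR, 70 in CR-salt and 113 in CR, and 80 in SR-salt and 118 in SR. The other is GRMZM2G112538, with 34 reads in PR-salt and 81 in PR. The entry was below 0 in each root type, with medians of -0.30 in PR, against -0.49 in CR and -0.57 in SR.

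AP2/ERF factors, among them the ethylene and drought response factors, had 46 of 65 transcripts below 0, a median of -0.25 in PR, against -0.11 in CR and -0.28 in SR, and DTGs in both directions. GRMZM2G086573, of the ANT lineage of growth regulators, had 21.8 RPKM in PR-salt and 107 in PR, 35.8 in CR-salt and 28.2 in CR, and 42.0 in SR-salt and 37.2 in SR. It was 4.89-fold lower in PR-salt, with a difference of ratios of -2.63 from CR (interval -3.15 to -2.12). Of the EREBP entry, GRMZM2G131281 was lower, with 57 reads in PR-salt and 151 in PR, and GRMZM2G011236 was higher, with 57 reads in PR-salt and 18 in PR. The cytokinin receptor entry held GRMZM2G431039, with 71.3 RPKM in PR-salt and 151 in PR, 9.95 in CR-salt and 38.6 in CR, and 34.8 in SR-salt and 231 in SR. It was lower under salt in every root type and less so in PR, since its PR ratio was above the CR ratio by 0.87 (interval 0.37 to 1.39) and above the SR ratio by 1.65 (interval 1.35 to 1.95).

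Among nutrient transporters, the lower DTGs were single carriers, while the medians of their lists stayed near 0 or slightly below it. The list of nitrate, nitrite and ammonium handling holds enzymes as well as transporters. Its text match also took in folylpolyglutamate synthases, whose entry names no nitrate or ammonium step. Its median was -0.18 in PR, against 0.23 in CR and 0.21 in SR. Of its 29 transcripts 19 were below 0, and 2 were DTGs. Both are high-affinity nitrate transporters of the NRT2 family. GRMZM2G010280 had 2.15 RPKM in PR-salt and 18.1 in PR, 35.6 in CR-salt and 19.7 in CR, and 50.5 in SR-salt and 8.41 in SR. The untreated libraries lay between 8.41 and 19.7, PR-salt lay below them and CR-salt and SR-salt above. The other DTG is its close copy GRMZM2G010251. The reference table lists GRMZM2G010280 under both nrt2.1 and nrt2.2, so which copy bears which name is uncertain. Because reads were counted only where they aligned uniquely, the split between the copies is uncertain. Some members short of 2-fold were also lower in PR-salt. The nitrite reductase GRMZM2G102959 had log2 ratios of -0.76 in PR (interval -0.94 to -0.59), 0.65 in CR and 0.66 in SR. The nitrate reductase GRMZM5G878558 had -0.61, 0.34 and 0.66, and the glutamine synthetase GRMZM2G036464 had -0.96, -0.10 and 0.06. Other members lay above 0 in PR, such as GRMZM2G067601 (0.31), a transcript of 408 bases filed under the nitrate reductase entry. GRMZM5G878558, of the same entry, has 2673 bases.

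Potassium transporters of the KUP type gave both DTGs among 71 transcripts for potassium, sodium and calcium, a list whose median was 0.08. HAK5 (GRMZM2G084779), the high-affinity carrier, had 14 reads in PR-salt and 66 in PR and at most 8 in each CR and SR library. HAK20 (GRMZM2G395267) had 24.3 RPKM in PR-salt and 58.7 in PR, 22.4 in CR-salt and 18.9 in CR, and 20.1 in SR-salt and 45.4 in SR, and was called lower in PR-salt and in SR-salt. The phosphate transporter pht1 (GRMZM2G326707) had 184 reads in PR-salt and 398 in PR, 256 in CR-salt and 357 in CR, and 278 in SR-salt and 491 in SR. The PR ratio of pht1 differed from that in CR (-0.74, interval -1.09 to -0.38) but not beyond counting error from that in SR (interval -0.66 to 0.02).

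Amino acid transporters had 3 lower DTGs and 25 of 39 transcripts below 0, with a median of -0.28 in PR, against -0.03 in CR and 0.04 in SR. GRMZM5G805732, of the basic amino acid and polyamine entry, had 104 reads in PR-salt and 260 in PR. GRMZM2G127328, with 21 and 95 reads, and GRMZM2G157168, with 22 and 91, belong to another amino acid carrier entry and are similar to each other in size of change. Sugar and polyol transporters had 2 lower DTGs and 31 of 55 transcripts below 0, with a median of -0.06. The sugar transporter GRMZM5G801949 had 12.4 RPKM in PR-salt and 115 in PR, 17.0 in CR-salt and 38.1 in CR, and 21 in SR-salt and 35.9 in SR. It was 9.29-fold lower in PR-salt, and its PR ratio lay below those in CR (-2.05, interval -2.67 to -1.44) and SR (-2.44, interval -3.04 to -1.85).

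Sucrose and trehalose metabolism had 4 lower DTGs among 39 transcripts. The invertase GRMZM2G018716, which splits sucrose, had 8 reads in PR-salt and 90 in PR, 3 in CR-salt and 49 in CR, and 29 in SR-salt and 37 in SR. The trehalose 6-phosphate synthase entry held GRMZM2G122231, with 159 reads in PR-salt and 418 in PR, and GRMZM2G312521, with 196 in PR-salt and 458 in PR. The hexokinase GRMZM2G051806 had 35 reads in PR-salt and 83 in PR. Isocitrate lyase icl1 (GRMZM2G056369), the first enzyme of the glyoxylate cycle, was the only DTG among 59 transcripts of the tricarboxylic acid and glyoxylate list, with 6 reads in PR-salt and 70 in PR, while 18 of the 59 were below 0 and their median was 0.10.

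Few transcripts were higher in PR-salt, among them 3 of sesquiterpene synthases. Terpene synthases had 3 higher and 2 lower DTGs among 21 transcripts, and the 3 higher ones belong to the (S)-beta-macrocarpene synthase entry, whose product is a precursor of the antifungal zealexins of maize. GRMZM2G028306 had 49.8 RPKM in PR-salt and 7.35 in PR, and no more than 2 reads in any CR or SR library. The transcripts of tps6 (GRMZM2G127087) had 123 reads in PR-salt and 34 in PR, and 40 in PR-salt and 8 in PR, with none in the CR and SR libraries. The synthase was thus read almost wholly in primary roots, where it was 3.47-fold to 6.78-fold higher in PR-salt. Reads were counted only where they aligned uniquely, so the split among similar synthases is uncertain.

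The higher DTG with the most reads in PR-salt was pr5 (311 reads), with 222 RPKM in PR-salt and 64.0 in PR, 4.51 in CR-salt and 2.92 in CR, and 4.50 in SR-salt and 0.764 in SR. It was 3.47-fold higher in PR-salt. GRMZM2G147014, with no KEGG entry or GO Process term in the table, had 249 reads in PR-salt and 104 in PR, 324 in CR-salt and 96 in CR, and 333 in SR-salt and 60 in SR, and so was higher with salt in each root type. GRMZM2G032225, likewise without either, had 139 reads in PR-salt and 46 in PR, 43 in CR-salt and 150 in CR, and 35 in SR-salt and 160 in SR. The other higher DTGs, apart from those of ABA synthesis and the EREBP entry, were GRMZM2G176647 of the syntaxin-binding entry (198 reads in PR-salt, 90 in PR), GRMZM2G377761 (79 and 30), GRMZM5G885766 (60 and 16), AC219053.3_FG002 (52 and 13) and GRMZM2G327042 (40 and 7).

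Genes of growth and basal metabolism had no DTG in most lists, yet the members of several lists lay to the same side of 0 by a small amount. Core and linker histones, which package newly made DNA, had 48 of 55 transcripts below 0 (87.3%, against 46.3% of all transcripts) with a median of -0.26 in PR, against -0.33 in CR and -0.37 in SR. By class, 14 of 17 H2A, 13 of 13 H2B, 11 of 12 H3, 5 of 5 H4 and 5 of 8 H1 transcripts were below 0. The H2B transcript GRMZM2G141432 had 908 reads in PR-salt and 1039 in PR (log2 ratio -0.25, interval -0.38 to -0.12). DNA replication genes had 43 of 69 below 0 and a median of -0.11. Cyclins and mitotic kinases did not follow, with 19 of 55 below 0 and a median of 0.13.

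Cellulose synthases had 17 of 18 transcripts above 0 and a median of 0.24 in PR, against 0.33 in CR and -0.03 in SR. Single members differed by little, as cesa2 (GRMZM2G027723) had 3738 reads in PR-salt and 3325 in PR (log2 ratio 0.11, interval 0.04 to 0.18). Of the respiratory chain and ATP synthase, 24 of 90 were below 0 and the median was 0.12 in PR, against 0.00 in CR and 0.02 in SR. Of proton pumps, 22 of 77 were below 0, and the plasma membrane pump pma1 (GRMZM2G104325) had 458 RPKM in PR-salt and 344 in PR, 310 in CR-salt and 228 in CR, and 371 in SR-salt and 274 in SR. The log2 ratio of pma1 was 0.41 (interval 0.34 to 0.49), and the differences from CR (-0.03, interval -0.15 to 0.09) and SR (-0.03, interval -0.14 to 0.09) were small. Cytosolic ribosomal proteins had 47.4% of their transcripts below 0 in PR, close to all transcripts, and 67.9% in CR and in SR. Expansin expB7 (GRMZM2G342246), a wall-loosening protein, was a lower DTG with 559 RPKM in PR-salt and 1260 in PR, 85.6 in CR-salt and 388 in CR, and 292 in SR-salt and 834 in SR.

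**Figure D4:**
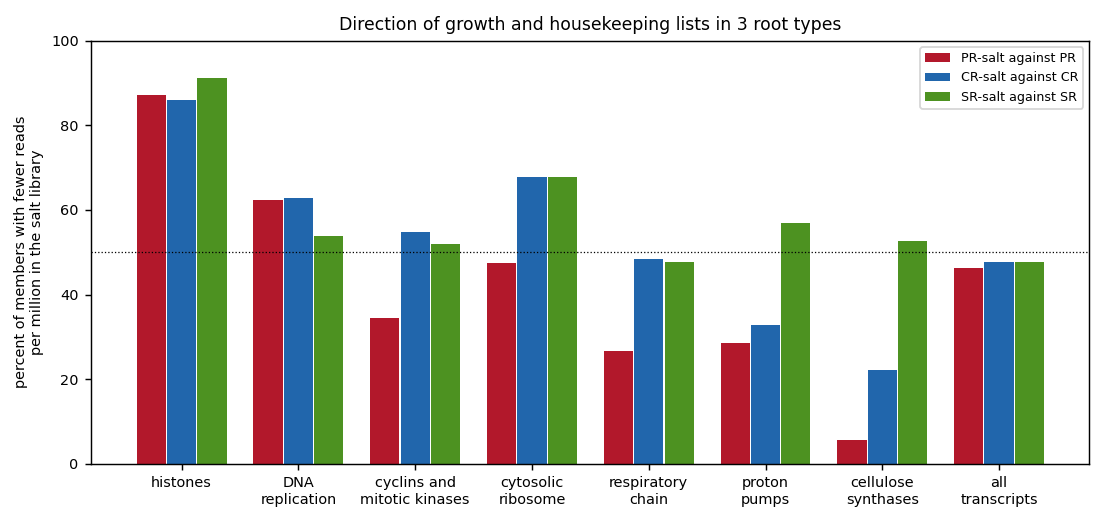
Percent of transcripts with a smaller share of the reads in the salt-treated than in the untreated library, for 7 lists of growth and basal metabolism and for all transcripts read 20 times or more, with red bars for PR-salt against PR, blue for CR-salt against CR and green for SR-salt against SR. Histones stand high in each root type (87.3%, 86.0% and 91.1%), while cellulose synthases stand at 5.56% in PR, 22.2% in CR and 52.6% in SR.

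A scan over the annotation of the table was run without regard to the lists. Of 264 GO Process terms with at least 20 measured members, 122 had more members at least 2-fold lower, 63 more at least 2-fold higher and 79 equal counts. Lower DTGs stood in 58 terms and higher DTGs in 5. Of 182 KEGG entries with at least 10 measured members, the counts were 67, 26 and 89, with lower DTGs in 33 and higher DTGs in 2. Medians ran from -0.28 to 0.29 over GO terms and from -0.59 to 0.29 over KEGG entries.

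Secretion was the GO term with the largest share at least 2-fold lower, 5 of 24 (20.8%). Its 3 DTGs are not part of the secretory machinery but the chitinase GRMZM2G447795, the invertase GRMZM2G018716 and the ABA 8'-hydroxylase GRMZM2G179147. Response to organic cyclic compound had 8 of 55 at least 2-fold lower (14.5%), 4 of them DTGs, which were 2 receptor-like kinases (GRMZM2G087625 and GRMZM2G468756), the amino acid carrier GRMZM5G805732 and the dehydrogenase GRMZM2G168953. Response to abiotic stimulus, the largest of these terms, had 13 of 101 at least 2-fold lower, 3 at least 2-fold higher and 6 lower DTGs, among them the nitrate transporters and the invertase. Cation transport had 6 of 43 at least 2-fold lower and no DTG. The terms share members, so their counts are not separate observations.

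Terms with more members higher in PR-salt held hardly any DTG. Photosynthesis, light reaction had 5 of 35 at least 2-fold higher, none lower and 26 above 0, but these 5 had only 15 to 38 reads in PR-salt and 6 to 16 in PR, and 3 of them recur among the 4 of 42 members of protein dephosphorylation that were at least 2-fold higher. No KEGG description in the photosynthesis term names a photosystem or light-harvesting protein. Those given include Clp protease subunits, protein translocases and elongation factor G, and other members have none. Production of siRNA had 40 of 47 above 0 (median 0.20), and (1->3)-beta-D-glucan metabolism, the making of callose, had 22 of 24 above 0 (median 0.22). Of KEGG entries, kinesin family member 15 had 25 of 28 above 0 (median 0.25), the phosphatidylinositol phosphate kinase entry 12 of 14 (0.25) and the PIP aquaporins, the water channels of the plasma membrane, 11 of 12 (0.15). The abundant aquaporin pip1e (GRMZM2G081843) had 4589 reads in PR-salt and 4003 in PR (log2 ratio 0.14, interval 0.08 to 0.20).

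**Figure D5:**
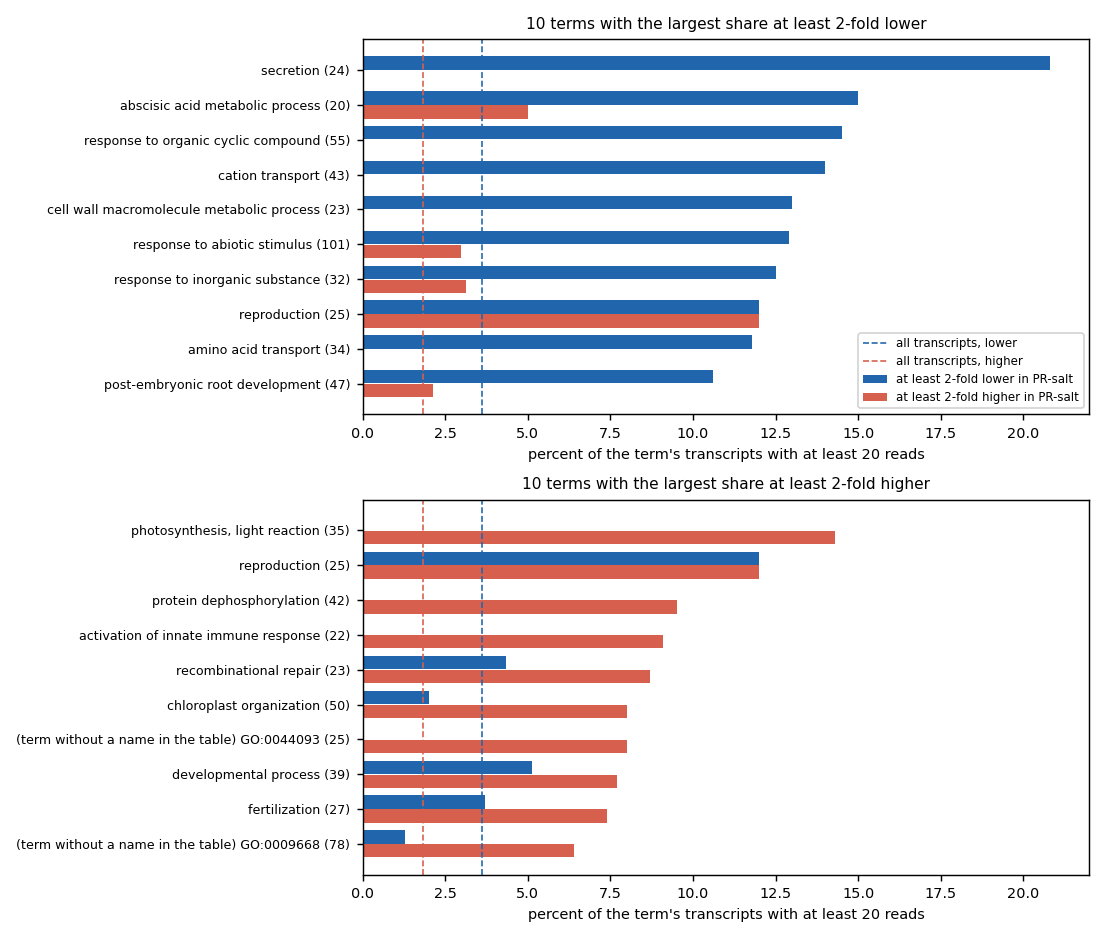
Percent of a GO Process term's transcripts with at least 20 reads that were at least 2-fold lower (blue) or at least 2-fold higher (red) in PR-salt, for the 10 terms with the largest share lower (top) and the 10 with the largest share higher (bottom), with the number of transcripts in brackets. Dashed lines mark the shares over all transcripts, 3.6% lower and 1.84% higher. Secretion leads the lower terms with 20.8%, and photosynthesis, light reaction leads the higher terms with 14.3%.

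Annotation covers only part of the response. Of the lower DTGs, 57 had neither a KEGG entry nor a GO Process term, and among all unannotated transcripts with at least 20 reads 4.19% were at least 2-fold lower, against 3.31% of annotated ones. The 10 lower DTGs with the most reads took 1.04% of the reads in PR-salt and 2.77% in PR, and 7 of them are short transcripts of 192 to 522 bases with neither in the table. The most abundant, GRMZM2G510249, had 5775 reads in PR-salt and 15679 in PR, 5519 in CR-salt and 6912 in CR, and 5514 in SR-salt and 8298 in SR. The 7 together took 0.907% of the reads in PR-salt and 2.45% in PR, 0.891% in CR-salt and 1.06% in CR, and 0.917% in SR-salt and 1.38% in SR. They were picked for being lower in PR-salt than in PR, so their high share in PR follows from the choice. The log2 ratios lay between -1.70 and -1.01 in PR, against -0.32 to -0.13 in CR and -0.72 to -0.42 in SR.

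The lower DTGs of PR were set against the other root types. Of those with reads in both libraries, 123 of 181 were below 0 in CR, where 47.7% of all transcripts with 20 reads or more were, and 122 of 182 in SR, where 47.6% were. The upper limit of the difference, PR ratio minus the other ratio, was below 0 for 132 of 177 against CR, for 126 of 178 against SR and for 109 against both. These counts include the way the DTGs were chosen, since a transcript was called for its low ratio in PR.

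Depth and the 2-fold threshold limited what could be called. In simulated pairs with these library sizes and counting error only, a 2-fold decrease was recovered in 30% of transcripts with 100 or more reads. It was recovered in 2.0% of those with 20 to 99 reads. A decrease of 2 on the log2 scale was recovered in 100% and 50% of these depth classes. A 2-fold decrease lies at the threshold itself, so counting error leaves part of such transcripts short of it at any depth. No call was made among 48112 unchanged simulated transcripts. In the observed pair 18130 transcripts had 20 reads or more, and rarer ones could hardly be called. The simulated error was also the one that the test assumes. The simulation held no variation between plants, so false calls from such variation were not tested. Families of rare transcripts, such as WRKY factors, could thus differ by 2-fold without a DTG.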

How the data were processed

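Samples were grouped by their titles. The authors filtered reads, aligned them to the B73 genome with SOAP, used BLAST to relate them to genes, and gave per transcript the count of uniquely aligned reads, the RPKM and the length in bases. The deposited count is raw, and recomputing the deposited RPKM from it gave the same values within 1.74e-06. Copies of a gene and antisense transcripts are uncertain, since only unique reads were counted and no strand is given in the sources used here. The percent of coverage was not used.

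PR-salt was compared with PR by the test of Audic and Claverie, adjusted by Benjamini-Hochberg over all transcripts read at least once, with 0.01 in place of an RPKM of 0. Log2 ratios use library totals with exact binomial 95% intervals, and differences between root types have exact conditional intervals. The test was tried on simulated data. Lists take the first KEGG entry of a transcript. Members and lists were chosen with earlier results of these data known. The transcripts named were selected from all higher DTGs, the 10 lower DTGs with the most reads, the 10 with the lowest upper limit, up to 4 DTGs with the most reads per list or leading GO term, and the 2 most abundant members of lists without DTG. Symbols come from RefSeq (assembly Zm-B73-REFERENCE-NAM-5.0), and no coordinates are given because the builds differ.

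Alternatives were Fisher's exact test, other scalings (edgeR 4.0.16, DESeq2 1.42.0), thresholds and read minima, sums per gene, every KEGG entry of a transcript, and edgeR exact tests with an assumed biological coefficient of variation. Scripts ran in R 4.3.3 and Python 3.11.15 (scipy 1.17.1, pandas 2.3.3, numpy 2.4.6, matplotlib 3.10.9).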

Additional observations from a re-analysis of the deposited data

Results flagged for a closer look

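Transcripts that were called in one direction in PR and in the other direction in CR or SR, with an exact 95% interval of the difference of log2 ratios on one side of 0, were 5. Because the calls already lie on opposite sides of 0, these intervals give sizes and add no separate support. The nitrate transporter GRMZM2G010251 had 1 read in PR-salt and 77 in PR, 228 in CR-salt and 100 in CR, and 259 in SR-salt and 50 in SR. Its PR ratio differed by -7.55 from the CR ratio (interval -12.89 to -4.98) and by -8.64 from the SR ratio (interval -14.00 to -6.05), and its size rests on the single read in PR-salt. Its copy GRMZM2G010280 differed by -5.63 from SR (interval -6.96 to -4.47). GRMZM2G001205, which has no KEGG entry or GO Process term in the table, had 15 reads in PR-salt and 64 in PR, 28 in CR-salt and 28 in CR, and 97 in SR-salt and 43 in SR, a difference of -3.28 from SR (interval -4.36 to -2.28).

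The opposite direction, higher in PR-salt and lower in the other salt-treated libraries, was seen for GRMZM2G032225, also with neither in the table, and GRMZM2G308463, of the xanthoxin dehydrogenase entry. GRMZM2G032225 differed by 3.28 from CR (interval 2.57 to 4.02) and by 3.74 from SR (interval 3.0 to 4.52). GRMZM2G308463 differed by 5.46 from CR (interval 3.48 to 8.02) and by 4.70 from SR (interval 3.38 to 6.15). In GRMZM2G308463 the library with 12 reads, PR, and those with 3 and 12 reads, CR-salt and SR-salt, set the size of the differences. These intervals hold counting error only, and variation between plants was not measured.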

How the results depend on the processing

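The variation assumed between plants moved the number of DTGs most. With 199 lower and 13 higher DTGs under counting error alone, edgeR's exact test with an assumed biological coefficient of variation of 0.1 called 132 lower and 5 higher, with 0.2 it called 38 lower and 1 higher, and with 0.4 it called 0 and 0. The 38 lower DTGs called at 0.2 were among the 199, and included the chitinases GRMZM2G162359 and GRMZM2G133781, the peroxidases GRMZM2G427815 and GRMZM2G443885, the feruloyl transferase GRMZM2G050450 and the invertase GRMZM2G018716, while chn1, the phenylalanine ammonia-lyase and the abundant short transcripts were not among them. The higher one was GRMZM2G028306. A false discovery rate of at most 0.05 gave 321 lower and 52 higher DTGs, and a minimum of 1.5 on the log2 scale gave 132 lower ones. Fisher's exact test, other scalings, 1 added read, a minimum of 20 reads and sums per gene gave 180 to 212 lower and 12 or 13 higher.

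Transcripts at least 2-fold lower and higher numbered 1292 and 900 with at least 10 reads in the pair and 256 and 52 with at least 50 reads. The median of all transcripts shifted by -0.03 with TMM, by 0.06 with DESeq2 size factors and by -0.02 without the 10 most-read transcripts, so list medians within about this distance of 0 have no firm direction. With at least 50 reads the medians were -0.18 for chitinases, -0.27 for WRKY factors and -0.21 for benzoxazinoid enzymes, and with every KEGG entry of a transcript that of the gibberellin list was -0.23. No called value changed sign. No paired analysis was possible because each condition has 1 library.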
